A study of Mus musculus with 4 samples.

Results

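The centromere-proximal 7 Mb of the mouse autosomes were examined for binding of 2 cohesin subunits, SMC3 and SMC1B, in spermatocytes, the meiotic cells of the testis. Mouse autosomes carry their centromere at the end where coordinates begin. The region was taken as the bases past 3 Mb up to 10 Mb (mouse assembly mm9) of chromosomes 1 to 19, which is 5.51% of the autosomal extent. It held 1081 of the 17778 SMC3 summits and 818 of the 10685 SMC1B-LAP summits in the lists deposited at a false discovery rate (FDR) of 0.1. Of the summits on autosomes these were 6.64% and 8.59%. A summit is the single base of highest signal of a peak called from chromatin immunoprecipitation followed by sequencing (ChIP-seq). No list held an autosomal summit in the first 3 Mb, and the first summit of an autosome lay between positions 3000115 and 3075653. No marker of the centromere was measured, so the region is centromere-proximal by its coordinates alone.

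The cells came from testes of C57BL/6 mice with an N-terminally LAP-tagged Smc1b, a tag that contains green fluorescent protein (GFP). They were fixed with formaldehyde, sorted for GFP and pooled. One library was precipitated with an antibody against SMC3 and the other with an antibody against GFP, both from tagged animals, and the 2 input libraries were not analysed here. Each target has 1 library, so a difference between targets cannot be told apart from a difference between 2 libraries or 2 antibodies. The tests below take the 19 autosomes of a library as units: their p-values describe the spread between chromosomes, not between animals. Without read counts in the lists, the depth of the libraries is unknown.

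Cohesin is a ring of 2 SMC proteins, a kleisin and an accessory subunit that holds sister chromatids together and organises chromatin loops along the chromosome axis. SMC3 is part of every such ring. SMC1B replaces SMC1A in a large part of the rings of meiotic cells and is needed to keep sister chromatids and centromeres together until the meiotic divisions. Around the centromere, cohesin is known to be protected from cleavage in the first division, and the heterochromatin there consists largely of satellite repeats that assemblies leave out.

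SMC1B-LAP summits were denser in the proximal region than in the rest of the same autosomes, on 17 of 19 chromosomes. The mean was 6.15 ± 4.25 summits per Mb (SD over 19 autosomes) against 3.79 ± 0.358 per Mb in the rest, a ratio of 1.62 (exact two-sided sign-flip permutation p = 0.00032, adjusted p = 0.00208 by Benjamini-Hochberg over 13 tests). The median autosome had 4.57 proximal summits per Mb, the lowest, chromosome 19, had 2.29 and the highest, chromosome 14, had 20.0. Leaving out the first 100 kb of chromosome 9, which held 76 SMC1B-LAP summits, lowered the mean to 5.58 per Mb and the ratio to 1.47, and the test still passed (exact permutation, adjusted p = 0.00218). Set against only the next 7 Mb, where the mean was 4.50 per Mb, the excess did not pass (exact permutation, adjusted p = 0.173). It did not pass either in the looser SMC1B-LAP list at FDR 0.5, with 19.1 against 15.6 summits per Mb (adjusted exact permutation p = 0.1).

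For SMC3 the proximal mean was 8.13 ± 3.35 summits per Mb against 6.61 ± 0.504 in the rest, a ratio of 1.23, and the difference did not pass after adjustment (exact permutation p = 0.0334, adjusted p = 0.0724). The chromosomes were divided, with 11 above and 8 below their own rest. Proximal values ran from 4.14 per Mb on chromosome 19 over a median of 7.43 to 19.6 on chromosome 14. Without the first 100 kb of chromosome 9 the SMC3 mean was 8.10 per Mb and the ratio 1.23. In the stricter SMC3 list, at FDR 0.001, the 387 proximal summits gave 2.91 per Mb against 2.74 in the rest of the pooled autosomes.

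**Figure D1:**
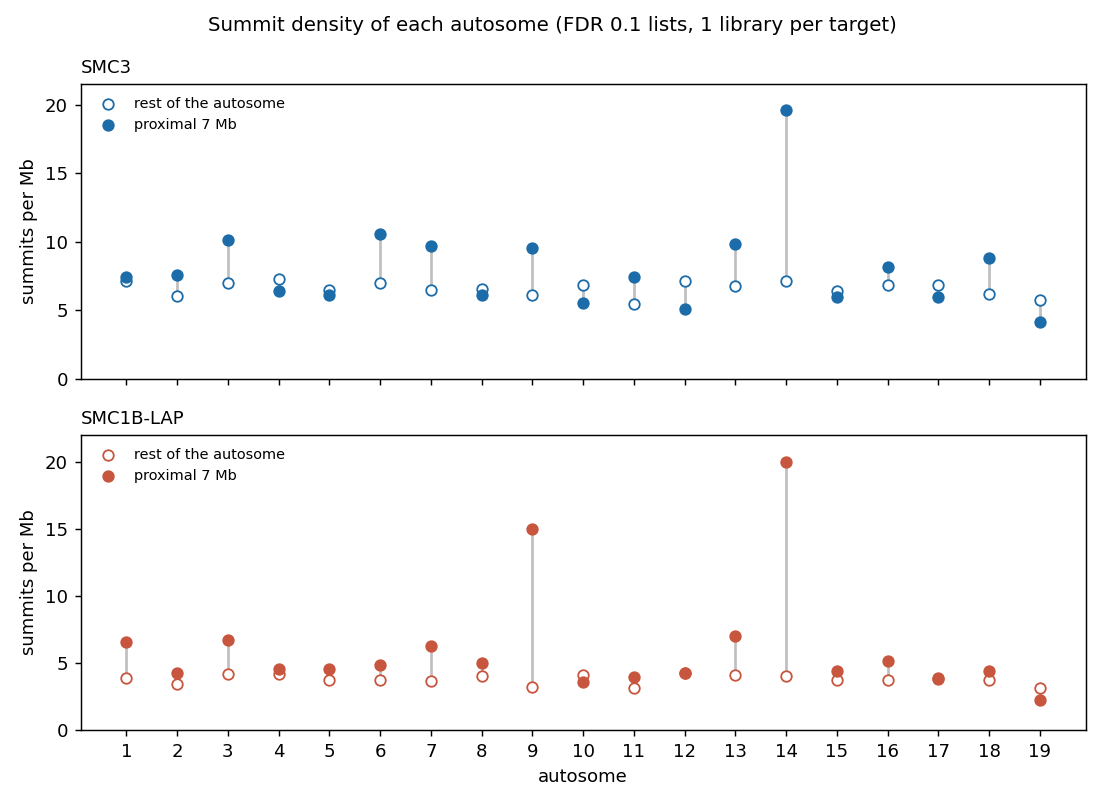
Summits per Mb (vertical axis) of each autosome (horizontal axis) in the proximal 7 Mb (filled) and in the rest (open), for SMC3 above and SMC1B-LAP below, from 1 library each. Proximal SMC1B-LAP values lie above the rest on 17 of 19 autosomes, and chromosomes 14 (both targets) and 9 (SMC1B-LAP) stand far above the others.

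The targets differed in how much of an autosome's binding was proximal. On average 8.74% ± 5.15 of an autosome's SMC1B-LAP summits and 6.97% ± 2.69 of its SMC3 summits lay in the region, a difference of 1.77 percentage points with SMC1B-LAP higher on 16 of 19 (exact permutation p = 0.00451, adjusted p = 0.0146). Without the first 100 kb of chromosome 9 the difference was 1.01 percentage points, higher on 15 of 19 autosomes (adjusted exact permutation p = 0.0462). Chromosome 9 was the one that changed side, from 22.2% of its SMC1B-LAP summits to 7.32%, against 8.75% and 8.27% of its SMC3 summits. It was not seen with the looser SMC1B-LAP calls: at FDR 0.5 the proximal share was 6.92%, a difference of -0.0558 percentage points (adjusted exact permutation p = 0.934). Set against the next 7 Mb only, or without the first Mb, it did not pass either (adjusted exact permutation p = 0.0783 and 0.0724).

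A breadth measure gave the same order. At least 1 SMC1B-LAP summit lay in 36.4% ± 12.4 of the proximal 100 kb windows and in 28.9% ± 2.27 of those in the rest, higher on 16 of 19 autosomes (exact permutation, adjusted p = 0.00539). SMC3 occupied 48.9% ± 9.74 of proximal windows and 44.4% ± 2.53 of the rest, higher on 13 of 19, which did not pass (adjusted exact permutation p = 0.0872).

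The excess was uneven among chromosomes. A proximal density of over 1.5 times the own rest was seen for both targets on chromosomes 7, 9 and 14, for SMC3 alone on chromosome 6, and for SMC1B-LAP alone on chromosomes 1, 3 and 13. On chromosome 7 the densities were 9.71 against 6.46 SMC3 summits per Mb and 6.29 against 3.67 SMC1B-LAP summits per Mb. Chromosome 6 had 10.6 against 6.97 per Mb for SMC3 and only 4.86 against 3.74 for SMC1B-LAP. On chromosome 1 the order was the other way, with 7.43 against 7.14 for SMC3 and 6.57 against 3.88 for SMC1B-LAP. Chromosomes 3 and 13 had SMC1B-LAP ratios of 1.59 and 1.70 and SMC3 ratios of 1.45 and 1.45. No autosome lay below its rest by a factor of 1.5 in either target. The lowest ratios were 0.716 for SMC3 on chromosome 12 and 0.733 for SMC1B-LAP on chromosome 19. Without chromosomes 9 and 14 together, a choice made after their values were seen, the SMC1B-LAP mean was 4.82 ± 1.23 against 3.81 ± 0.345 per Mb, higher on 15 of 17 autosomes (exact permutation, adjusted p = 0.00555). The SMC3 mean was then 7.37 ± 1.92 against 6.61 ± 0.505 per Mb, higher on 9 of 17 (adjusted exact permutation p = 0.157).

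Chromosome 14 had the densest proximal region of both targets. Its 7 Mb held 137 SMC3 summits, 12.7% of all proximal SMC3 summits, and 140 SMC1B-LAP summits, 17.1% of the proximal SMC1B-LAP summits. That was 19.6 against 7.12 per Mb in the rest of the chromosome for SMC3, a ratio of 2.75, and 20.0 against 4.06 for SMC1B-LAP, a ratio of 4.92. The filled stretch spanned nearly the whole region rather than one spot. SMC1B-LAP occupied 78.6% of the 100 kb windows there, against 31.8% in the rest of the chromosome, and SMC3 68.6% against 46.6%. By 1 Mb steps the SMC3 numbers were 9, 23, 18, 19, 35, 22 and 11, and the SMC1B-LAP numbers 18, 21, 21, 19, 26, 27 and 8. The next steps outside the region held 14 and 5 SMC3 and 7 and 5 SMC1B-LAP summits. The other lists, cut at another FDR from the same libraries, are not independent of these. In the 7 Mb they held 43 SMC3 summits at FDR 0.001 (2.07 times the rest per Mb) and 377 SMC1B-LAP summits at FDR 0.5 (3.27 times).

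Both targets crowded the start of chromosome 14, but few of their summits coincided there. The 7 mutual nearest pairs within 500 bp were still denser than elsewhere, at 1 per Mb against 0.565 in the rest of chromosome 14. Only 7 of its 137 proximal SMC3 summits (5.11%, exact Clopper-Pearson 95% interval 2.08% to 10.2%) and 7 of its 140 SMC1B-LAP summits (5.00%, 2.03% to 10.0%) had the other target within 500 bp. In the rest of chromosome 14 the shares were 7.93% (6.17% to 9.99%) and 14.1% (11.1% to 17.6%). The intervals of the SMC1B-LAP shares do not overlap, those of SMC3 do, and they cover the counting error of summits only. Low proximal shares were not particular to chromosome 14. Chromosome 5 had 2.33% for SMC3 and 3.13% for SMC1B-LAP, and chromosome 8 had 4.65% and 5.71%. Against the own rest, proximal shares were higher on 9 of 19 autosomes for SMC3 and on 8 for SMC1B-LAP. Of the 140 SMC1B-LAP summits, 77 (55%) had scores of 1 to 1.5, against 60.8% in the rest of all autosomes. Of those 77, 1 was shared, 1.30% (0.0329% to 7.02%), against 7.99% (7.27% to 8.75%) in the rest of all autosomes. The score is the deposited one, read as the −log10 of the q-value from the lowest score of each list, since no header names it. None scored 10 or more, and 1 shared pair, at 9.44 Mb, was among the strongest of the whole region. The median score on proximal chromosome 14 was 2.19 for SMC3 and 1.25 for SMC1B-LAP, against 2.40 and 1.07 in the rest of that chromosome.

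**Figure D2:**
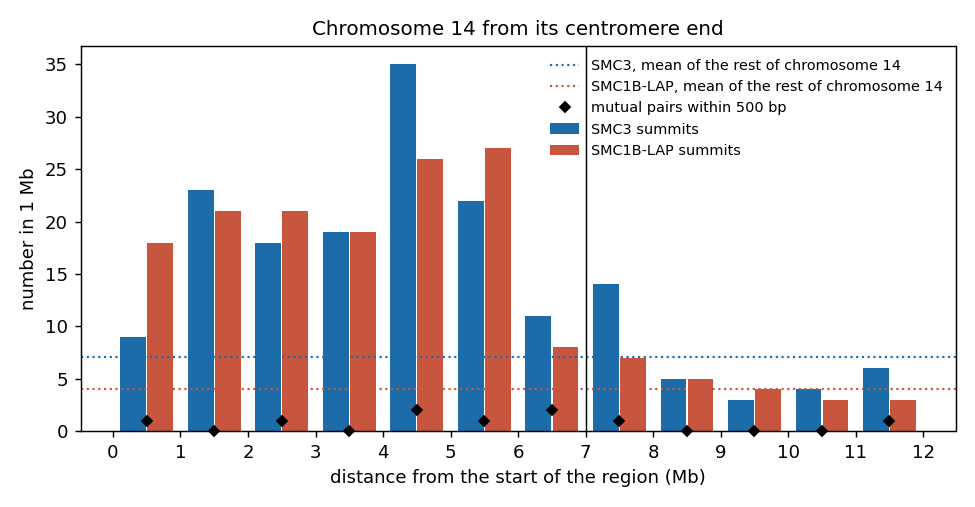
Summits of SMC3 (blue) and SMC1B-LAP (red) and mutual pairs within 500 bp (diamonds) in 1 Mb steps along chromosome 14, as numbers per step against the distance from the start of the region, with dotted lines at the mean of the rest and a vertical line at 7 Mb. Both targets stay far above their dotted line from the second to the sixth step, with 18 to 35 summits each. Pairs number 0 to 2 per step, against a mean of 0.565 per Mb in the rest of the chromosome.

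On chromosome 9 most of the SMC1B-LAP excess lay in one short stretch that held few SMC3 summits. The first 100 kb held 76 SMC1B-LAP summits, 72.4% of the proximal summits of that chromosome and 9.29% of those of all autosomes. Of these, 74 lay between positions 3000115 and 3037531, a stretch of 37.4 kb with 1.98 summits per kb. Neighbouring summits in it were 117 to 1478 bp apart, with a median of 406 bp. A gap of 44.5 kb followed, and then 2 more summits. SMC3 had no summit in the 37.4 kb stretch, and the nearest one lay 42152 bp from it. The 4 SMC3 summits of the 100 kb were at 3079683, 3081582, 3082995 and 3093916, with scores of 4.603, 2.74, 2.62 and 1.37. The 76 SMC1B-LAP scores ran from 1.03 over a median of 2.23 to 8.44, and only 7 of them had the most frequent score of the list, 1.07. Outside the window the remaining 29 proximal SMC1B-LAP summits of chromosome 9 gave 4.20 per Mb, 1.30 times the rest. For SMC3 the ratio was 1.56 with the window and 1.49 without it.

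**Figure D3:**
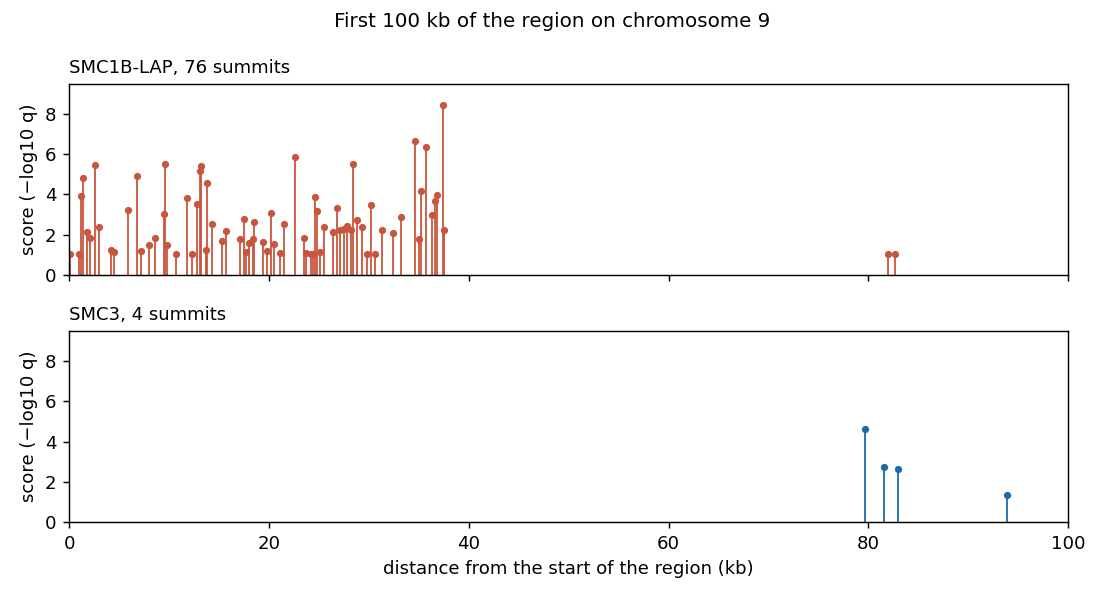
Score (−log10 q, vertical axis) of each SMC1B-LAP summit (above) and SMC3 summit (below) against its distance in kb from the start of the region, in the first 100 kb of chromosome 9. Of 76 SMC1B-LAP summits, 74 fill the first 37.4 kb, where SMC3 has none.

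Position was then read in 1 Mb steps, with distances counted from the start of the region at 3 Mb. The first step held the most summits of both targets. For SMC3 it held 193 summits, 10.2 ± 5.82 per autosome (SD over 19), and the 6 steps after it 129 to 174. For SMC1B-LAP it held 205, or 129 without the first 100 kb of chromosome 9, and the following steps 87 to 113. The first Mb was above the mean density of the same autosome's rest on 14 of 19 chromosomes for SMC3 and on 12 of 19 for SMC1B-LAP. Such counts were not confined to the first Mb. Each later proximal step had SMC1B-LAP above its rest on 12 or 14 autosomes, whereas the SMC3 counts there varied between 6 and 13. Outside the region, SMC1B-LAP reached 14 autosomes at 12 to 13 Mb from its start and SMC3 reached 14 at 13 to 14 Mb. The lowest count of an outside step was 8 in either target. The fullest first steps for SMC3 were those of chromosomes 16, 9, 18, 6 and 4, with 23, 19, 18, 17 and 15 summits, and the emptiest that of chromosome 10, with 3. For SMC1B-LAP, apart from 79 on chromosome 9, the fullest were chromosome 14 with 18, chromosomes 3, 6 and 16 with 13 each, and chromosome 18 with 12, and chromosome 10 had 1. The last step inside the region and the first outside it were close, at 142 and 131 SMC3 summits and 87 and 77 SMC1B-LAP summits. Further out the densities did not stay flat. Steps 12 to 14 Mb from the start of the region, for example, averaged 9 and 8.47 SMC3 summits per autosome. The step from 16 to 17 Mb held 186 SMC3 and 126 SMC1B-LAP summits, with up to 46 and 36 on one autosome. Over the 17 autosomes without chromosomes 9 and 14 that step averaged 9.76 and 6.94, against 9.71 and 6.35 in the first.

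**Figure D4:**
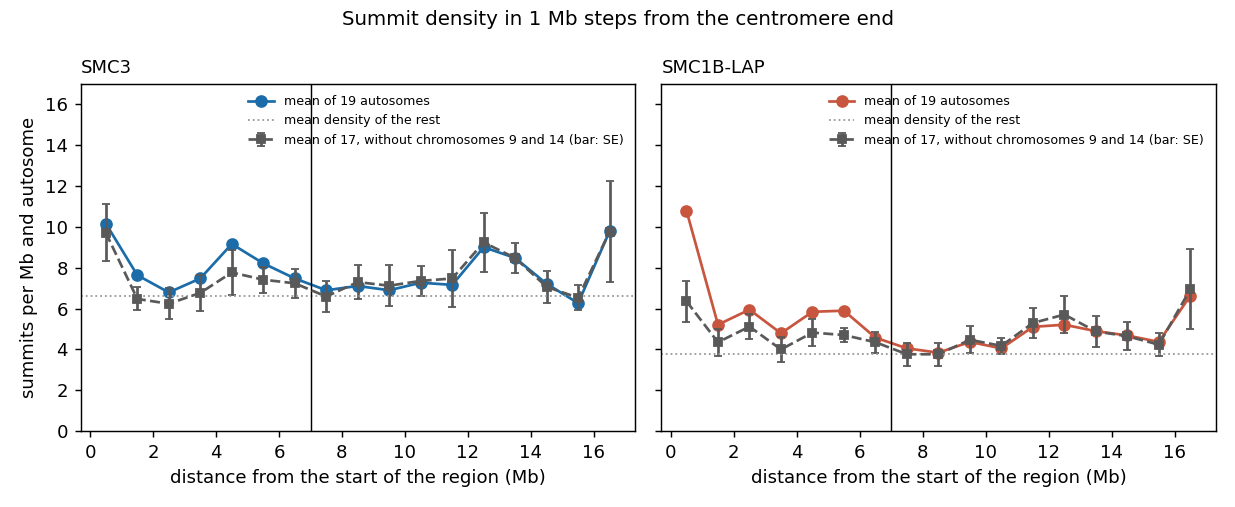
Mean number of summits per autosome in 1 Mb steps (vertical axis) against the distance from the start of the region, for SMC3 (left) and SMC1B-LAP (right), over 19 autosomes (coloured) and over 17 without chromosomes 9 and 14 (grey squares, bars show the SE over those 17), with a dotted line at the mean of the rest and a vertical line at 7 Mb. The first step is the highest inside the region for both targets, at 9.71 and 6.35 per autosome even over the 17 autosomes. Outside the region, the step from 16 to 17 Mb reaches 9.76 and 6.94 over the same 17.

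Windows crowded with summits lay mostly on chromosome 14, as a description with no test. Of the 1330 proximal 100 kb windows, 15 held 5 or more SMC3 summits, or 1.13%, where 0.534% of all 24157 autosomal windows did. For SMC1B-LAP 9 proximal windows did, or 0.677%, against 0.161%. Chromosome 14 held 9 of the 15 SMC3 windows and 5 of the 9 SMC1B-LAP windows. A further 4 and 3 were in the first 200 kb of the region on other autosomes. Without chromosome 14, a choice made after its values were seen, 6 of 1260 proximal windows were left for SMC3, 0.476% against 0.501% of all windows of those 18 autosomes, and 4 for SMC1B-LAP, 0.317% against 0.140%. The fullest SMC3 windows were 3.0 to 3.1 Mb of chromosome 18, with 10 SMC3 and 6 SMC1B-LAP summits, and on chromosome 14 the windows starting at 6.1 and 7.1 Mb, with 8 SMC3 summits each beside 1 and 6 of SMC1B-LAP. Chromosome 6 also had 8 SMC3 summits in its first window, tied with these. For SMC1B-LAP the first window of chromosome 9 was followed by chromosome 14 at 8.2 to 8.3 Mb, with 10 beside 6 SMC3 summits, and at 4.3 to 4.4 Mb, with 6 beside 4. The chromosome 14 windows starting at 5.7 and 7.1 Mb and the first window of chromosome 18 also held 6, tied with the last.

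With both lists at FDR 0.1, no difference in co-occupancy within 500 bp between the region and the rest passed the test. With SMC3 at FDR 0.001 the SMC1B-LAP share was lower in the region, 7.32% against 10.6% (exact permutation, adjusted p = 0.0370). No other of the 13 alternatives for this share passed, 3 changed direction, and the p was not adjusted for choosing among them. Within 500 bp of an SMC1B-LAP summit lay 92 of 1081 proximal SMC3 summits, 8.51% (95% interval 6.92% to 10.3%), against 8.11% (7.68% to 8.55%) in the rest. Per autosome the mean difference was 0.284 ± 4.38 percentage points, higher on 9 of 19 (exact permutation, adjusted p = 0.842). In the other direction 96 of 818 proximal SMC1B-LAP summits had an SMC3 neighbour, 11.7% (9.61% to 14.1%), against 14.2% (13.5% to 15.0%), and 94 of 742, or 12.7% (10.4% to 15.3%), without the first 100 kb of chromosome 9. The mean difference per autosome was -1.32 ± 7.81 percentage points, higher on 8 of 19 (exact permutation, adjusted p = 0.549). Single autosomes spread widely, with SMC1B-LAP shares that rest on 16 to 140 proximal summits each, and the cause of the spread was not tested. Proximal SMC1B-LAP shares ran from 25.9% on chromosome 17 and 25.8% on chromosome 18 to 3.13% on chromosome 5. On chromosome 19 none of 29 SMC3 and none of 16 SMC1B-LAP summits were shared, which by a limit of 3 counts allows shares of up to 10.3% and 18.75%. Without chromosomes 9 and 14 the pooled SMC1B-LAP shares were nearly equal, 14.1% (11.4% to 17.3%) against 14.2% (13.4% to 15.0%). Within 100 bp, tested per autosome, the mean SMC1B-LAP share was 8.90% against 11.7%, which did not pass (adjusted exact permutation p = 0.0870). Within 50 bp, a distance not tested per autosome, the pooled SMC1B-LAP share was 7.70% (5.97% to 9.75%) against 11.1% (10.4% to 11.8%). Without chromosomes 9 and 14 it was 9.42% (7.16% to 12.1%) against 11.1% (10.4% to 11.8%). For SMC3 the shares within 50 bp were 5.83% (4.51% to 7.40%) and 6.35% (5.97% to 6.75%) over all autosomes.

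**Figure D5:**
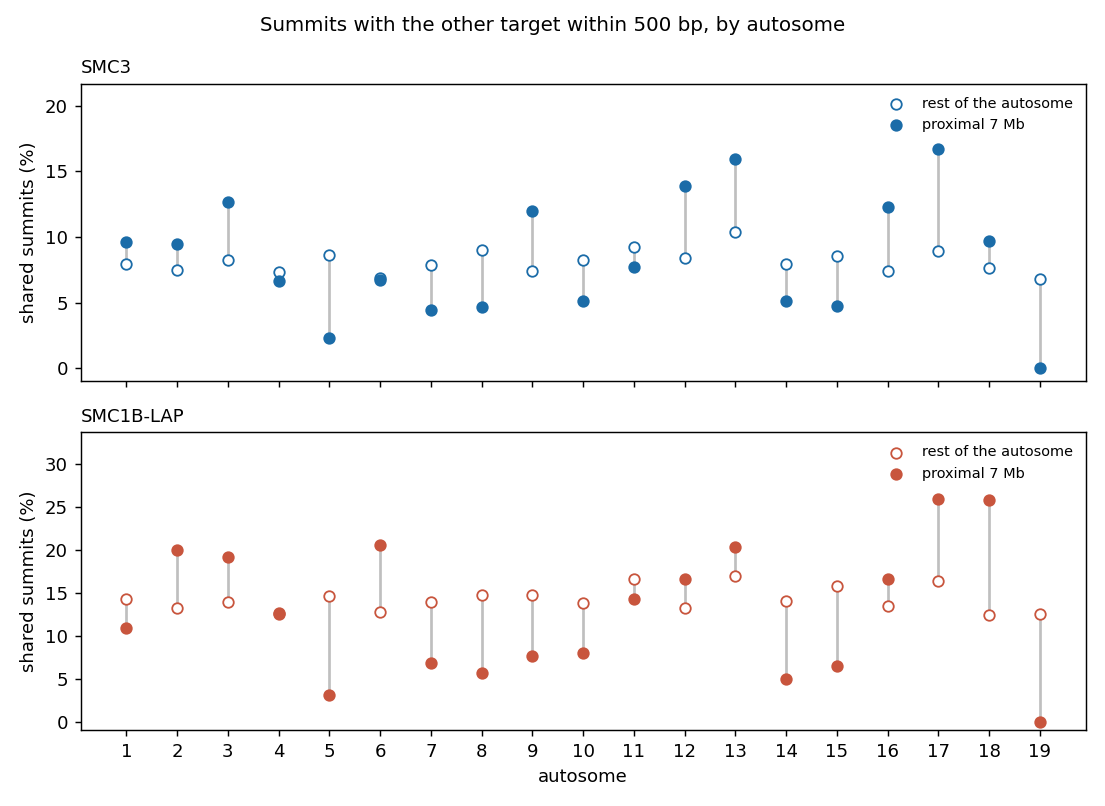
Percent of summits with a summit of the other target within 500 bp (vertical axis) in the proximal 7 Mb (filled) and in the rest (open) of each autosome (horizontal axis), for SMC3 above and SMC1B-LAP below. Proximal shares scatter on both sides of the rest, with SMC1B-LAP shares between 0 on chromosome 19 and 25.9% on chromosome 17.

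The region held 90 mutual nearest pairs within 500 bp, 0.677 ± 0.392 per Mb (SD over 19 autosomes) against 0.528 ± 0.0714 in the rest (exact permutation, adjusted p = 0.126). Chromosomes 13 and 3 had the most, with 10 and 9 pairs. The median distance was 16.5 bp, and 63 of the 90 pairs, 70%, were within 50 bp. In the rest the median was 14 bp and 79.8% were within 50 bp. Proximal pairs had median scores of 4.09 for SMC3 and 1.61 for SMC1B-LAP, against 6.65 and 1.86 for pairs in the rest.

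The 5 highest proximal summits of each target were shared. SMC1B-LAP lay 4 to 36 bp from each of the 5 highest SMC3 summits, and all 5 highest SMC1B-LAP summits had an SMC3 summit within 0 to 36 bp. On chromosome 17 the SMC1B-LAP summit at 4626328 scored 68.4, the fifth highest of all 9522 autosomal SMC1B-LAP summits, beside an SMC3 summit at 4626292 with a score of 50.6. On chromosome 11 the pair at 5200489 (SMC3) and 5200473 (SMC1B-LAP) scored 64.9 and 11.1. The pair on chromosome 12 had both summits at the identical base, 8537668, with scores of 37.1 for SMC3 and 30.6 for SMC1B-LAP. On chromosome 14 the summits at 9439136 (SMC3) and 9439140 (SMC1B-LAP) scored 58.8 and 9.74. The pair at 9767650 and 9767646 of chromosome 17 scored 60.9 and 7.93. These were the 5 leading pairs by the sum of both ranks. The highest SMC3 score of the region, 71.9, stood at 7006384 of chromosome 11, beside an SMC1B-LAP summit with a score of 5.68. On chromosome 3 the SMC1B-LAP summit at 4339067 scored 35.5, beside an SMC3 summit 6 bp away with a score of 21.7. Sharing did not extend to all high summits: the sixth SMC1B-LAP summit, at 3037403 of chromosome 9 with a score of 8.44, was 42280 bp from the nearest SMC3 summit.

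High scores were few among the proximal SMC1B-LAP summits. Scores of 10 or more were reached by 4 of 818 (0.489%) against 1.56% in the rest. All 4 were shared (39.8% to 100%), where 76.5% (68.4% to 83.3%) of such summits in the rest were. Among SMC3 summits 78 of 1081 (7.22%) reached 10, against 8.13%, and 25 of these 78 were shared, 32.1% (21.9% to 43.6%), against 37.2% (34.5% to 40.0%) in the rest. The mean of the autosomes' median SMC3 scores was 2.37 in the region and 2.51 in the rest (exact permutation, adjusted p = 0.1). For SMC1B-LAP the medians averaged 1.24 and 1.07, higher on 8 and lower on 1 of 19 autosomes, with the others tied (adjusted exact permutation p = 0.0305). Many SMC1B-LAP summits share the score 1.07, which ties these medians. The mean of log10 scores gave a difference of -0.00084 (adjusted exact permutation p = 0.965). The share at the tied score was 43.5% ± 12.6 per autosome in the region and 48.5% ± 3.26 in the rest (exact permutation, adjusted p = 0.126).

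The running numbers in the lists show how many peaks the authors' longer call, from which the lists were drawn, numbered between 2 summits. For SMC1B-LAP that call was sparser in the region, with 566 ± 40.5 numbered peaks per Mb against 617 ± 22.1 in the rest, lower on 16 of 19 autosomes (exact permutation, adjusted p = 0.00079). Of each 1000 numbered SMC1B-LAP peaks 11.1 passed FDR 0.1 in the region and 6.21 in the rest, with the region higher on 17 of 19 autosomes. For SMC3 the longer call was about as dense, 37.9 ± 9.14 against 37.8 ± 1.32 per Mb (exact permutation, adjusted p = 0.965). Of each 1000 numbered SMC3 peaks 220.3 passed in the region and 176.2 in the rest, with the region higher on 15 of 19 autosomes. Chromosome 14 again stood apart, with 68.0 numbered SMC3 peaks per Mb in the region against 36.8 in its rest. Its numbered SMC1B-LAP peaks were fewer, 511 against 630 per Mb. Coverage, mappability and repeats were not measured here, and their part in the proximal excess was not tested.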

How the data were processed

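ChIP-seq summits of SMC3 and SMC1B-LAP, 1 library each, were analysed from 4 deposited lists. Per the submitters' processing notes, the tools were MACS2 and Bowtie2 (given as 0.12.8) and the build mm9. How inputs, duplicates and multiply mapped reads were handled is not stated in the labels. The score the authors deposited was read as the −log10 of the q-value, because the lowest score of each list matches its FDR; no header states the unit. For a share of 0 the limit given is that of 3 counts. Depth is unknown, and intervals (exact Clopper-Pearson, 95%) cover the counting error of summits only.

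Each autosome was divided into the region from 3 Mb to 10 Mb and the rest, up to the last summit of any list. Summits per Mb, shares within 500 bp, mutual nearest pairs, occupied 100 kb windows, scores and running numbers were compared per autosome by a two-sided exact permutation of the signs of the 19 differences (524288 sign patterns), adjusted by Benjamini-Hochberg over 13 tests, with a threshold of 0.05. Running numbers came from the FDR 0.1 list for SMC3 and the FDR 0.5 list for SMC1B-LAP. Named were the 5 highest summits and 5 leading pairs, the 3 fullest windows, and autosomes past a ratio of 1.5. The region, lists and tests were chosen with earlier results of these data known. Alternatives are given in the closing section. For the adjustment, the p of an alternative replaced that of its main test, and the other main p-values were kept. No genome or annotation of mm9 was used, so no gene or sequence is given. The density comparison was tried on simulated summits placed at random, with and without a planted excess, but without clustering like that seen here. The other tests were not simulated. The software was Python 3.11.15 with numpy 2.4.6, pandas 2.3.3 and scipy 1.17.1.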

Additional observations from a re-analysis of the deposited data

Results flagged for a closer look

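The share of an autosome's summits that was proximal differed between the targets by 1.77 percentage points (8.74% of SMC1B-LAP and 6.97% of SMC3 summits, exact sign-flip permutation over 19 autosomes, adjusted p = 0.0146), by a test of the difference itself. SMC1B-LAP was higher on 16 of 19 autosomes, and the targets have 1 library each. Without the first 100 kb of chromosome 9 the difference was 1.01 percentage points (adjusted exact permutation p = 0.0462). With SMC1B-LAP at FDR 0.5 it was -0.0558 (adjusted exact permutation p = 0.934). Of 12 alternatives, 5 kept the direction but no longer passed.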

How the results depend on the processing

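Differences here are the region minus the rest, or SMC1B-LAP minus SMC3 for the proximal share, with adjusted p from the exact permutation. The settings that leave out chromosomes 9 and 14, take only the first Mb or leave it out were chosen after seeing the data. The higher SMC1B-LAP density kept its direction under all 11 alternatives, with differences of 0.751 to 6.93 per Mb. It no longer passed against the next 7 Mb (1.65 per Mb) and at FDR 0.5 (3.58 per Mb). The difference in proximal share no longer passed with the first 10 Mb (1.71 percentage points), against the next 7 Mb (3.18), for the first Mb alone (0.955), without it (0.895) and without it and chromosomes 9 and 14 (0.567), and turned to -0.0558 at FDR 0.5. The SMC3 density passed for the first Mb alone (3.50 per Mb, exact permutation, adjusted p = 0.0335).

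Co-occupancy changed direction with many settings. For SMC3 it was -0.162 percentage points in the first 5 Mb, -0.144 in the first 10 Mb, -1.34 with SMC3 at FDR 0.001, -0.127 with SMC1B-LAP at FDR 0.5, -0.141 without the tied score, -0.740 within 100 bp, -0.425 without the first Mb and -0.460 without it and chromosomes 9 and 14. For SMC1B-LAP it was 0.0886 against the next 7 Mb, 0.575 at FDR 0.5 and 1.20 in the first Mb. With SMC3 at FDR 0.001 the lower SMC1B-LAP share passed (-3.32, exact permutation, adjusted p = 0.0370), the only 1 of its 13 alternatives to do so. The SMC1B-LAP median score difference was 0.118 without chromosomes 9 and 14, no longer past the threshold, and -0.00084 as a mean log10 score. The SMC3 longer call was -1.60 per Mb without chromosomes 9 and 14. The cause of these changes was not tested.

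With each autosome left out in turn, SMC1B-LAP density, occupied windows, longer call and the proximal share passed in 19 of 19 fits. The proximal-share difference was lowest without chromosome 9 (1.12). SMC3 density ran from 0.906 (without chromosome 14) to 1.71 per Mb and passed in 3 of 19 fits, SMC3 occupied windows from 3.45 to 5.22 percentage points (2 of 19), the SMC1B-LAP median score from 0.121 to 0.187 (12 of 19), SMC3 co-occupancy from -0.130 to 0.676 percentage points, and the SMC3 longer call from -1.61 to 0.760 per Mb. Unknown depth limits what the absence of a summit shows.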
